A study of Rattus norvegicus with 6 samples.

Results

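The transcripts of 9 keratin genes (Krt5, Krt7, Krt8, Krt14, Krt15, Krt17, Krt18, Krt19 and Krt20) and of vimentin (Vim) were compared between a rat bile duct cancer cell strain and a fibroblastic strain, to ask which keratins were still measured in the fibroblastic cells. The members were the probe sets that the platform annotation assigned to exactly 1 of these 10 symbols, and each gene had 1 such probe set, so that 10 of the 31099 probe sets on the array, and 10 of 14217 named genes, are described. Expression was measured on 6 Affymetrix arrays, 3 of the strain BDEsp-TDECC (TDECC below) and 3 of the strain BDEsp-TDESM (TDESM below). Per the labels, TDECC is a clonal cholangiocarcinoma strain and TDESM a clonal cancer-associated fibroblastic strain that overexpresses Acta2, the actin of smooth muscle and myofibroblasts, and both were derived from tumours that grew in male Fischer 344 rats after spontaneously transformed rat cholangiocytes (BDEsp cells) had been put into the bile duct. No genetic alteration is named for either strain, the age is given only as young adult, and all 6 samples carry the same text on culture (a 3-dimensional organotypic co-culture in collagen gel) and on treatment (the TGF-beta inhibitors SB 431542 and LY2157299), so the labels do not say which cultures received an inhibitor. Each group is 1 clone, and nothing in the labels states that the 3 arrays of a strain are independent cultures. The p-values therefore reflect the scatter of these arrays alone, and part or all of it may be technical.

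Keratins are the intermediate filament proteins of epithelial cells. Each filament is built from pairs of an acidic type I keratin and a basic type II keratin, and a keratin without a partner is usually unstable as a protein. Simple epithelia such as bile ducts and hepatocytes use Krt8 (type II) with Krt18 (type I), and bile duct cells add Krt7 (type II) and Krt19 (type I), which serve in pathology as markers of biliary lineage. Krt20 is a type I keratin of intestinal and urothelial surface cells, and Krt5, Krt14, Krt15 and Krt17 belong to basal or stressed cells of stratified epithelia. Vimentin is the type III filament protein of mesenchymal cells, which assembles without a partner.

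The values are deposited log2 expression values, on which a difference of 1 is a doubling. Array medians lay between 5.80 and 5.86 and array maxima between 14.60 and 14.76. Detection calls were not used here, so a reference range was taken from 58 marker genes of leukocytes, hepatocytes and striated muscle, cell types that neither label names. Their median was 4.36 to 4.58 on the 6 arrays, and their 95th percentile was 6.53 to 6.66 on the TDESM arrays. On the TDECC arrays the 95th percentile was 6.44, 9.37 and 7.43. The range is a rough guide only, since probe sets differ in their own background. Both strains matched their labels: all 8 measured epithelial markers were lower and all 10 fibroblast markers higher in TDESM. No epithelial marker rose above the range on any TDESM array, and their summed level was 7.64 to 7.81 on the log2 scale there against 14.45 to 14.87 in TDECC. As these were bulk cultures, fewer cells of a type and less RNA per cell cannot be told apart.

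The keratins of simple epithelium read high in the cancer strain and fell in the fibroblastic strain. The type II keratins Krt7 and Krt8 remained above the 95th percentile of the reference genes on every TDESM array but not above their 99th (9.21, 9.22 and 9.34), against which 0 of the 9 keratins count as above. On these arrays the type I keratins Krt18 and Krt19 stood near the bottom of the scale, below the median of the reference genes. Vimentin did the opposite and was the highest value of every TDESM array. Of the 9 keratins, 5 were lower in TDESM (limma, adjusted p below the threshold of 0.05 over all genes), 1 was higher and 3 did not pass. Over all 14217 genes 20.6% were lower and 22.1% higher by the same rule, and 42.7% passed in either direction. The strains did not overlap for 7 of the 10 members, 5 lower and 2 higher in TDESM. This held for 53.6% of all genes, 26.4% lower and 27.3% higher. The median difference of the 9 keratins was -0.80, and that of all genes was 0.0033. A single value compared by an exact permutation test of 3 against 3 arrays cannot give a two-sided p below 0.1, and this was the result for each member whose groups did not overlap.

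**Figure D1:**
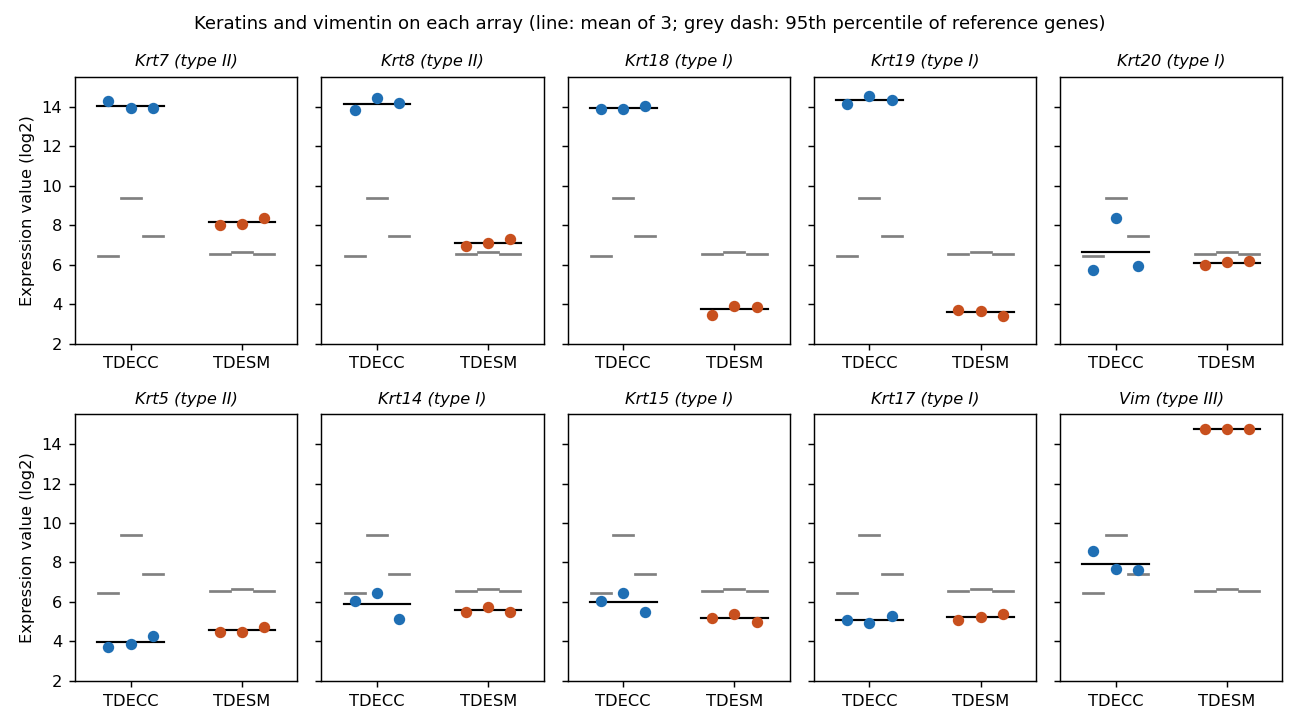
Expression value (log2) of each of the 9 keratins and vimentin on every array, in panels by gene with TDECC in blue and TDESM in orange. Black lines are means of 3 arrays and grey dashes the 95th percentile of 58 reference genes on that array. Krt7 and Krt8 in TDESM lie above their dashes, while Krt18 and Krt19 there lie below 4.

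Krt7, the type II keratin of bile ducts and other glandular ducts, read 14.27, 13.96 and 13.95 in TDECC and 8.0, 8.06 and 8.37 in TDESM. The groups were far apart and each was tight, and in TDESM it lay above the 95th percentile of the reference genes, though 2 of these 58 genes read higher on each array. The difference was -5.92 (SE 0.16, 95% interval -6.29 to -5.54, limma adjusted p = 4.02e-07), so the TDESM signal was 1.66% of the TDECC signal.

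Krt8, the type II keratin that pairs with Krt18 in nearly all simple epithelia, read 13.83, 14.45 and 14.21 in TDECC and 6.95, 7.09 and 7.30 in TDESM. The strains did not overlap, and the TDESM mean was 0.54 above the 95th percentile of the reference genes (1.57 for Krt7), with 3 of the 58 genes higher on each array. The difference was -7.05 (SE 0.19, 95% interval -7.50 to -6.60, limma adjusted p = 4.13e-07), which left 0.755% of the TDECC signal. The RefSeq gene table names 1 pseudogene of Krt8 and 6 of Krt18, and what they add to these probe sets was not tested.

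Krt18, the type I partner of Krt8, read 13.90, 13.89 and 14.03 in TDECC and 3.47, 3.90 and 3.83 in TDESM. Its TDESM values lay below the median of the reference genes on all 3 arrays. Krt18 was therefore not above the reference range there, and the measured difference of -10.21 (limma adjusted p = 9.79e-08) is limited by the floor. Set to the 95th percentile of the reference genes in TDESM, it was at least 165-fold lower.

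Krt19, the type I keratin that marks bile duct cells in the liver, read 14.14, 14.52 and 14.34 in TDECC and 3.70, 3.65 and 3.38 in TDESM. Like Krt18 it lay below the reference median on each TDESM array. Its measured difference of -10.76 (limma adjusted p = 9.79e-08) has the same limit, and by the same bound it was at least 216-fold lower. Probe sets of a bacterial control transcript that was not added read 2.87 to 3.23 on the TDESM arrays. Both type I keratins read a little above them on each of these arrays.

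The keratins were also compared within arrays, where the level of an array as a whole cancels. Krt7 minus Krt18 was 0.37, 0.07 and -0.08 in TDECC and 4.53, 4.16 and 4.54 in TDESM. The strains differed by 4.29 in this quantity as measured, and Krt7 minus Krt19 differed by 4.84 and Krt8 minus Krt18 by 3.16, with no overlap between strains in any of the 3. As the type I keratins were at the floor in TDESM, these sizes and their small spread are in part those of the floor. With Krt18 and Krt19 set to the 95th percentile of the reference genes in TDESM, the differences were 1.45, 1.84 and 0.31 (pooled SD of the measured values 0.22, 0.37 and 0.25). Against the 99th percentile Krt7 and Krt8 are themselves below the range, and no bound can be given.

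The type II keratins could be compared with each other above the 95th percentile of the reference genes, though not above the stricter cut. Krt7 minus Krt8 was 0.44, -0.49 and -0.26 in TDECC and 1.05, 0.97 and 1.07 in TDESM, a difference of 1.13 (pooled SD 0.34). The TDECC arrays spread widely here, though none reached the TDESM values. The TDESM mean of Krt8 was only 0.54 above that percentile, and both keratins read 13.83 or more in TDECC, near the array maxima. What probe background or compression adds to this difference was not tested. Each of these 4 pairs gave p = 0.1 by an exact two-sided permutation test (0.1 after adjustment over the 4 pairs), the lowest value 6 arrays allow.

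**Figure D2:**
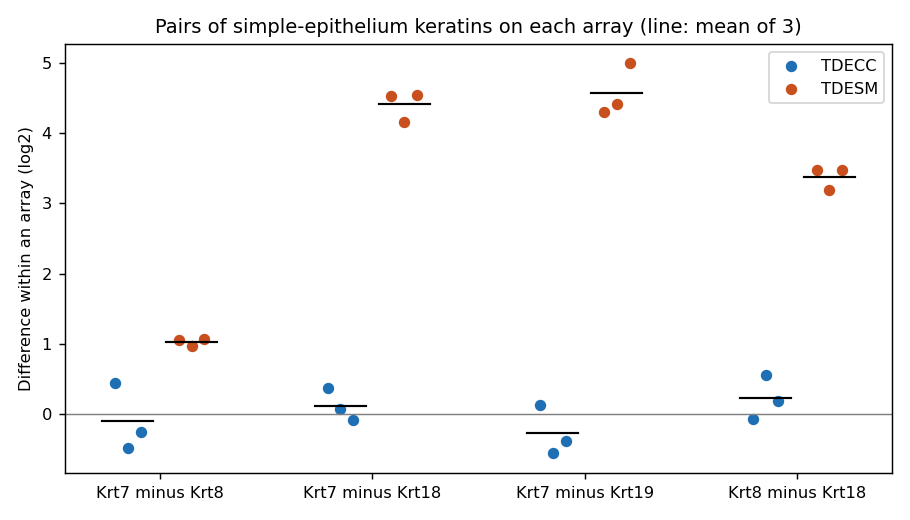
Difference between 2 keratins within each array (log2) for 4 pairs, with TDECC in blue and TDESM in orange and a black line at the mean of 3 arrays. In TDECC all pairs lie between -0.56 and 0.56, and in TDESM the pairs of a type II with a type I keratin lie between 3.19 and 4.99, with the type I keratin at the floor.

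On the TDESM arrays on which Krt7 and Krt8 were above the 95th percentile, the epithelial adhesion gene Epcam (12.58, 13.19 and 12.87 in TDECC) was near the floor with Krt18 and Krt19, at 3.26, 3.28 and 3.06. Epcam had the lowest TDESM mean of the 8 epithelial markers, and St14 had the highest, at 5.81, 5.39 and 6.20. Of the mesothelial markers, whose cells make both simple keratins and vimentin, 2 of 6 measured were higher and 1 lower in TDESM, where 22.1% and 20.6% of all genes were. Wt1, a transcription factor of mesothelium and of some mesenchyme, read 9.18, 9.20 and 9.14 in TDESM and 4.47, 4.05 and 3.73 in TDECC, a difference of 5.09, or 2.96 when its probe sets were averaged. Lrrn4 was higher by 0.77 (turning to -0.50 with arrays centred on poly-A control transcripts), and Msln, mesothelin, differed by -7.02. The markers Calb2, Gpm6a and Upk1b did not pass, and the summed level of the 6 markers was 9.63 to 9.72 in TDESM and 12.53 to 13.09 in TDECC, where Msln alone read 12.49 or more. Their part in the keratin values was not tested.

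Krt8 and Krt18 are neighbours: the RefSeq table of assembly GRCr8 lists them as adjacent coding genes on chromosome 7, at the end of the type II keratin cluster, although Krt18 is a type I keratin. They stand beside Krt78 on one side and Eif4b on the other. Their upstream sequences are shown because these neighbours, whose proteins pair with each other, read on different sides of the 95th percentile of the reference genes in TDESM, and that of Vim is shown because it moved the other way. RefSeq promoter sequences were matched for 5 of the 10 members (Krt5, Krt8, Krt18, Krt20 and Vim). The windows run 5′ to 3′ on the gene's strand from 250 bases before the annotated start to the end of the last TATAA before it. Capitals mark matches to CACCTG (an E-box letter string of the kind that Snail and Zeb repressors recognise) and to GGGCGG (a GC box), both searched on both strands, to TGANTCA (an AP-1 string, both strands), and to TATAA, searched on the gene's strand.
Krt8, chr7:135010439-135010589, minus strand: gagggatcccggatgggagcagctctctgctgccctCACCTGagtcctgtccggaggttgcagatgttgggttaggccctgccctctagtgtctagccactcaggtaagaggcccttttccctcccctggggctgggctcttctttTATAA
Krt18, chr7:135035918-135036130, plus strand: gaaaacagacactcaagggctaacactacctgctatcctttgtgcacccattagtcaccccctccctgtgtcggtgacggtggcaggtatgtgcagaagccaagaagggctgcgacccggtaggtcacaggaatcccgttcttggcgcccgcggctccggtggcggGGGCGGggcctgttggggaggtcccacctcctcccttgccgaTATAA
Vim, chr17:81577011-81577183, plus strand: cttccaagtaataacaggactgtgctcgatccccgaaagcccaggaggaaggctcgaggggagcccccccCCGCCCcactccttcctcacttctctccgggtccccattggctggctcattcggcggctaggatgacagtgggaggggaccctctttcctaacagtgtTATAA

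Over the full 300-base windows, 50 bases after the start included, CACCTG was found in those of Krt5, Krt8 and Krt20 and in 18.8% of all 33469 RefSeq windows of this length. GGGCGG was found in those of Krt5, Krt18 and Vim and in 33.1% of all windows. TATAA stood in those of Krt8, Krt18, Krt20 and Vim and in 18.4% of all windows, and TGANTCA only in that of Krt8, after the start, and in 7.33% of all. The annotated start of Krt8 coincides with an ATG, so that its window may lie downstream of the true promoter start. These are matches of letters, and no binding was measured.

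Vim read 8.57, 7.65 and 7.61 in TDECC and 14.75, 14.76 and 14.75 in TDESM. On each TDESM array it was the highest of all 31099 probe sets, so its level there, and with it the difference of 6.81 (SE 0.26, 95% interval 6.19 to 7.43, limma adjusted p = 1.72e-06), may be compressed. In the cancer strain all 3 Vim values lay above the array median, and 2 of 3 above the 95th percentile of the reference genes. On replicate 3 that percentile was 7.43, close to the Vim value of 7.61. None of the 3 lay above the 99th percentile (9.82, 10.87 and 11.42). Replicate 1 had the highest Vim value of the TDECC arrays. The 10 fibroblast markers had their lowest summed level there (8.56, against 8.78 and 9.31) but their highest median (4.81, against 4.47 and 4.535). The source of the vimentin signal in TDECC was not tested.

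**Figure D3:**
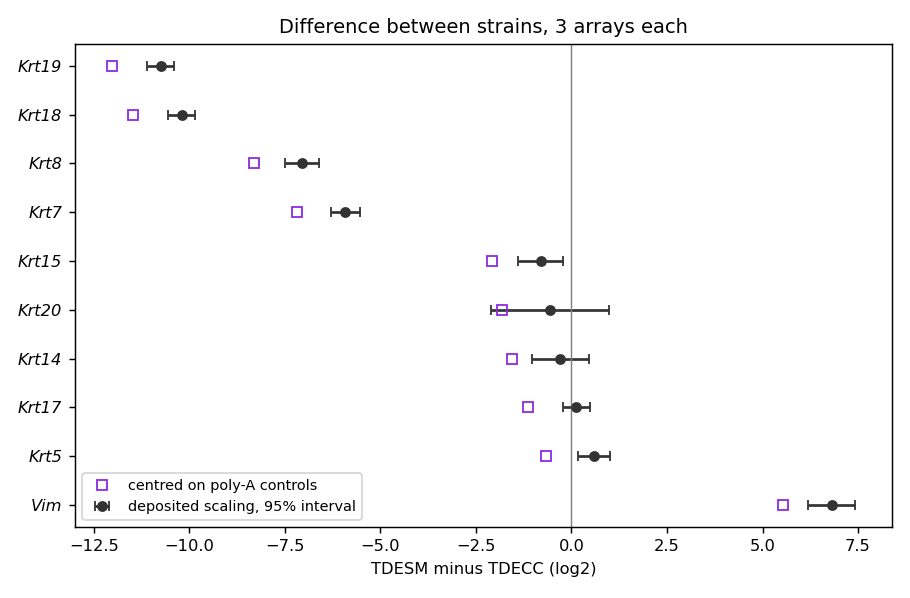
TDESM minus TDECC (log2) for the 10 genes. Black points are the deposited scaling with limma's 95% interval, and open squares are the values after poly-A centring. Krt7, Krt8, Krt18, Krt19 and Vim keep their direction under both scalings, whereas Krt5 and Krt17 change sign.

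The keratins of stratified epithelium were low in both strains and differed little. None of the 4 exceeded the reference range on any array of either strain. Krt15, a keratin of basal and hair follicle stem cells, read 6.03, 6.45 and 5.50 in TDECC and 5.17, 5.39 and 5.01 in TDESM.

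The strains did not overlap for Krt15, and it fell by 0.80 on the log2 scale (SE 0.25, limma adjusted p = 0.0367). The call was lost when any 1 array was left out other than TDECC replicate 3 (adjusted p of 0.0664 to 0.126), and with arrays centred on housekeeping or ribosomal protein genes (adjusted p = 0.0584 and 0.0515). Krt15 lies next to Krt19 on chromosome 10, and Krt19 differed by -10.76.

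Krt5, the type II keratin of basal cells, read 3.73, 3.87 and 4.29 in TDECC and 4.48, 4.46 and 4.74 in TDESM. It was the 1 member keratin called higher in the fibroblastic strain, by 0.60 (SE 0.18, limma adjusted p = 0.0327), at levels around the reference median in both. That call was lost without TDECC replicate 1 or 2 or without any 1 TDESM array (adjusted p of 0.0693 to 0.115), and the difference turned to -0.68 with the poly-A centring.

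Krt14, the type I partner of Krt5, read 6.06, 6.43 and 5.15 in TDECC and 5.50, 5.77 and 5.50 in TDESM. The TDESM values lay inside the range of the TDECC values (difference -0.29, 95% interval -1.04 to 0.46, limma adjusted p = 0.514). Without TDECC replicate 3, the lowest array, the difference was -0.66 and passed (adjusted p = 0.0247).

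Krt17, a type I keratin induced in stressed and wounded epithelium, read 5.07, 4.92 and 5.29 in TDECC and 5.07, 5.23 and 5.37 in TDESM. The groups overlapped, and the interval of the difference, -0.22 to 0.48, leaves room for a small change only (limma adjusted p = 0.535, or -1.14 and past the threshold with the poly-A centring).

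Of 13 measured genes of basal and squamous differentiation, 4 were lower and 1 (Dst, described with the anchors) was higher, and their median difference was -0.07. Over all genes 20.6% were lower, against 30.8% of this list. Tgm1, the transglutaminase that cross-links the cornified envelope, differed by -8.46 from a TDECC mean of 13.19. Grhl3, a transcription factor of surface epithelia, differed by -6.69, Sprr1a, a cornified envelope precursor, by -3.46 and Sfn (stratifin), a checkpoint protein of epithelia, by -3.36. The structural genes Ivl and Col17a1 read below 4 on all 6 arrays. Krt5, Krt14, Krt15 and Krt17 were thus not above the range in the strain in which Tgm1 and Grhl3 were.

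Krt20 read 5.72, 8.34 and 5.92 in TDECC and 5.99, 6.13 and 6.19 in TDESM. A single array, TDECC replicate 2, stood apart, and the other 5 lay between 5.72 and 6.19. The strains overlapped, and the difference was -0.56 (SE 0.65, 95% interval -2.10 to 0.99, limma adjusted p = 0.547). Without that array the sign turned, to 0.28 (adjusted p = 0.155).

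Replicate 2 was also the high array for other genes of surface epithelia. Krt79, a type II keratin of hair follicle and duct openings, read 7.06, 12.15 and 7.44 in TDECC and 6.63, 6.54 and 7.43 in TDESM. Its excess on replicate 2 over the mean of the other TDECC arrays, 4.90, ranked 7 among 14217 genes. Krt78, the coding neighbour of Krt8, read 6.64, 10.14 and 7.21 in TDECC and 5.65, 5.70 and 5.43 in TDESM.

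Krt79 did not pass the threshold between strains, with a difference of -2.02 (limma adjusted p = 0.255) or of -0.38 without replicate 2 (adjusted p = 0.373). Krt78 differed by -2.40 (adjusted p = 0.0551), and passed without replicate 2 (-1.33, adjusted p = 0.0031) or replicate 1 (-3.08, adjusted p = 0.02). It also passed with housekeeping centring (-2.21, adjusted p = 0.0389), the replicate block (adjusted p = 0.0341) and without the dimmest 33.3% of genes (adjusted p = 0.0391). With poly-A centring Krt78 was at -3.68 and passed, but 12187 of 14217 genes passed there, so that pass says little about Krt78. It passed under none of the other alternatives. Both keratins were singled out after their values had been seen. Cdh17, a cadherin of intestinal epithelium, moved with them, at 6.28, 12.63 and 6.49 in TDECC.

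The other 7 intestinal genes measured did not share this pattern as a group. Fabp2 was highest on replicate 2, at 3.78, 5.26 and 4.03. Muc2 (4.41, 7.20 and 6.55), Vil1 (4.77, 6.45 and 6.15), Cdx2 (8.90, 10.31 and 10.11) and Lgals4 (12.28, 13.41 and 13.05) were set apart by a low replicate 1, with replicate 3 close to replicate 2. Cdx1 and Tff3 were not highest on replicate 2, and 27.6% of all genes were. The simple keratins did not share the pattern: on replicate 2 Krt8 and Krt19 were 0.43 and 0.28 above the mean of the other TDECC arrays, and Krt7 and Krt18 were at -0.15 and -0.075 from it. What set this array apart was not tested.

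Beyond the 9 keratins, 16 of 47 other keratin genes listed had a probe set of their own. Of these, 1 was higher in TDESM and 0 were lower (limma), where 42.7% of all genes passed in either direction. Krt10, the type I keratin of the upper layers of the epidermis, read 2.94, 3.09 and 2.84 in TDECC and 7.11, 6.70 and 6.73 in TDESM. It rose from the floor to above the 95th percentile of the reference genes, with 3 of the 58 genes still higher, on all 3 TDESM arrays, by 3.89 (SE 0.15, limma adjusted p = 2.01e-06), and kept its direction and call under every scaling tried, at 2.62 with the poly-A centring.

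Krt1, the type II partner of Krt10 in epidermis, read 3.76, 3.66 and 3.84 in TDESM and 3.97, 3.83 and 3.76 in TDECC, near the floor in both. Krt86, a type II hair keratin, is named here after its values had been seen. It was above the reference range on all 3 TDESM arrays (7.14, 6.80 and 6.66). In TDECC it read 6.64 to 6.99 and was above the range on 1 array, with no difference past the threshold (limma adjusted p = 0.722). Krt79 was above the range on 2 TDESM arrays and Krt33b on 1. On TDESM replicate 1 Krt86 read above Krt8 (7.14 against 6.95), and on replicate 3 Krt79 did (7.43 against 7.30). The count of other keratins past the threshold was small but not fixed: it was 6 without TDECC replicate 1, and 2 without TDECC replicate 2, with the replicate block or with arrays centred on housekeeping genes, and 16 with the poly-A centring.

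**Figure D4:**
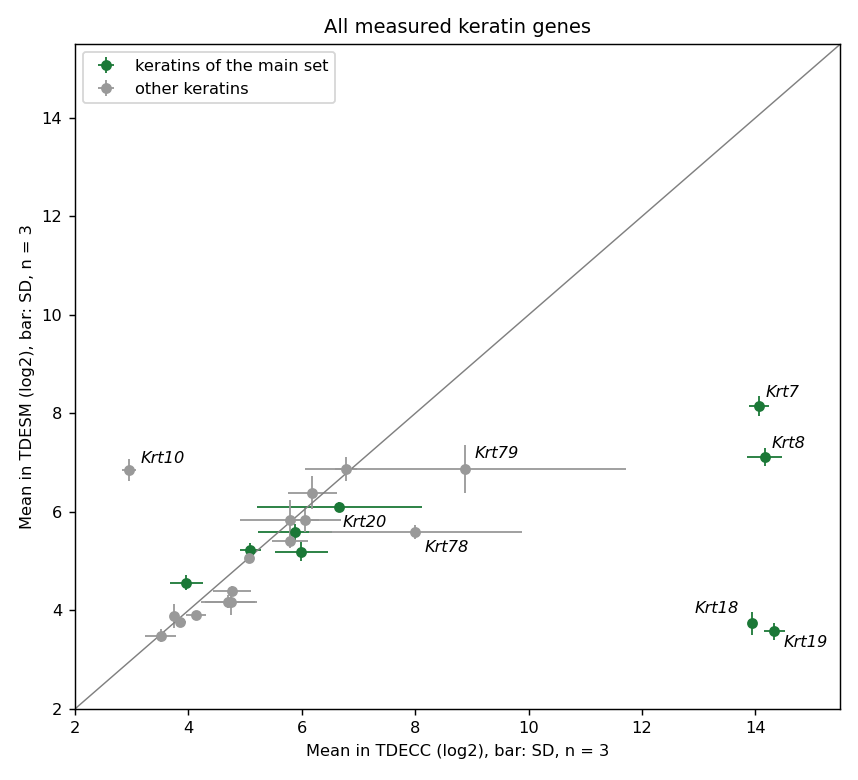
Mean expression value (log2) of each of the 25 measured keratins in TDECC (horizontal) and TDESM (vertical), with bars of 1 SD over 3 arrays and a diagonal of equal values. Green points are the 9 keratins and grey points the others. Krt10 lies far above the diagonal, Krt7, Krt8, Krt18 and Krt19 lie far below it, and Krt20, Krt78 and Krt79 have wide TDECC bars.

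Of 17 other intermediate filament genes, 6 rose and 4 fell in TDESM (35.3% and 23.5%, against 22.1% and 20.6% of all genes), and their median difference was 0.15. Desmin (Des), the filament of muscle, and nestin (Nes), that of precursor and reactive cells, rose by 0.63 and 0.78, but turned to -0.64 and -0.49 with the poly-A centring. Desmin read 6.30 to 6.39 in TDESM, within the reference range. Synemin (Synm), which joins desmin or vimentin filaments, went the other way, at 4.94, 5.38 and 5.02 in TDESM against 7.44, 8.30 and 7.42 in TDECC, a difference of -2.61, or -0.94 when its probe sets were averaged. Syncoilin (Sync), another partner of desmin, rose by 0.70, or by 2.23 as such an average, and turned to -0.58 with the poly-A centring.

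The lamins, which line the nucleus, were high in both strains. Lmnb1 rose by 1.62 (1.01 as the average of its probe sets) and Lmna by 0.96, while Lmnb2 differed by -0.93. Leaving out TDESM replicate 3 ended the Lmna call (adjusted p = 0.0503), and its sign turned, to -0.32, with the poly-A centring, where Lmnb1 (0.35, adjusted p = 0.32) no longer passed. Iffo1, a filament family member, rose by 1.85 by 1 of its 3 probe sets and by 0.76 as their average, and did not pass with the poly-A centring (0.58, adjusted p = 0.0952). Bfsp1, a lens filament gene, differed by -1.45 and Nefh, the heavy neurofilament, by -1.01. The Nefh call was lost when any 1 array other than TDECC replicate 2 was left out (adjusted p of 0.0557 to 0.129) and with housekeeping centring (adjusted p = 0.0935). The filament genes Gfap, Nefl, Nefm, Prph, Ina, Bfsp2 and Iffo2 did not pass.

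Transcripts of proteins that anchor filaments to junctions mostly fell with those of the simple keratins. Of 20 such genes 14 fell and 1 rose in TDESM (limma), and the median difference was -2.24, against 20.6% of all genes lower. The desmosomal cadherins Dsc2 and Dsg2 differed by -7.84 and -7.56. Periplakin (Ppl), which ties keratins to the cell cortex, differed by -6.91. Itgb4, the integrin chain that binds keratins to hemidesmosomes, differed by -6.22.

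The fall was again uneven. Desmoplakin (Dsp), the main link from desmosome to keratin, fell from 11.21, 12.44 and 11.72 to 7.63, 7.65 and 7.64. A second Dsp probe set, at 5.76 to 5.93 in TDECC, differed by -0.38 and did not pass (limma adjusted p = 0.0645 over probe sets). Plakoglobin (Jup), which also serves adherens junctions, fell only from 11.18, 11.52 and 11.33 to 10.21, 10.18 and 10.21. Dystonin (Dst), a plakin with isoforms for keratin, actin and microtubules, read 10.38, 10.50 and 10.21 in TDESM and 8.43, 8.09 and 7.12 in TDECC, a rise of 2.48, or of 1.42 when its probe sets were averaged. Plectin (Plec), which binds both keratin and vimentin, read 9.60, 9.77 and 9.85 in TDESM and 10.73, 10.84 and 9.66 in TDECC and did not pass (adjusted p = 0.13).

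**Figure D5:**
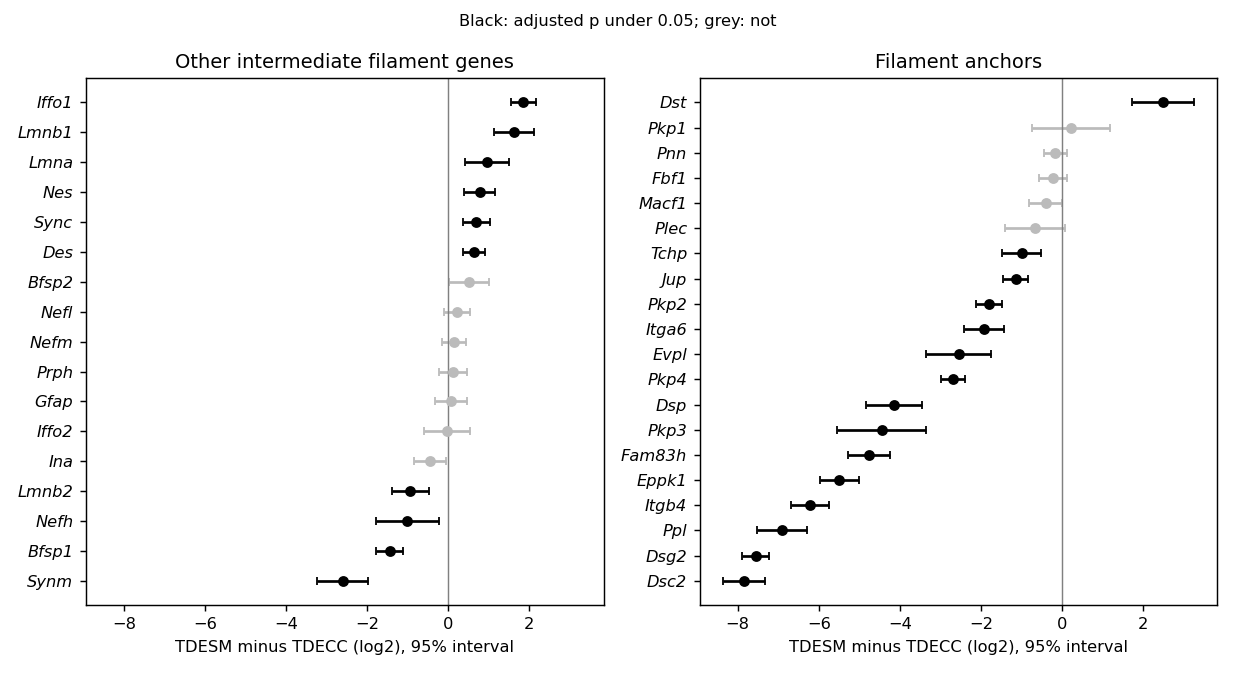
TDESM minus TDECC (log2) with limma's 95% interval for 17 other intermediate filament genes (left) and 20 filament anchors (right). Black points passed an adjusted p of 0.05 and grey points did not. On the right 14 black points lie below 0 and Dst lies above it.

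The genes with profiles nearest to a member were ranked by the root mean square distance between log2 profiles over the 6 arrays, each gene centred on its own mean, as a description of these arrays. The closest to Krt7 was Il33, an alarmin cytokine, at a distance of 0.13. Il33 read 14.14, 13.61 and 14.05 in TDECC and 7.87, 7.86 and 8.27 in TDESM, and so also kept a signal well above the array median in the fibroblastic strain. Padi1, a peptidylarginine deiminase, and Hpgd, which degrades prostaglandins, followed at 0.18 and 0.20.

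The nearest to Krt19 were Tspan8, a tetraspanin, at 0.29, Krt18 at 0.36 and Epcam at 0.54. For Vim they were Tmed3, a secretory pathway protein, at 0.16, Cpq at 0.21 and Lix1l at 0.25. Those of Krt17, whose profile was nearly flat, were Tsx, Rpain and Snx1 at 0.04 each.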

How the data were processed

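Trizol-extracted total RNA of 6 rat samples was labelled with biotin and hybridised by the Affymetrix procedure, per the labels' protocols. The authors deposited log2 values, and the submitters' processing notes name RMA as the method, with no version in the sources used here. Such scaling gives all arrays nearly equal distributions and hides a difference in total mRNA. Groups came from sample titles. In R 4.3.3 with limma 3.58.1, each of 14217 genes took the values of 1 probe set, that of highest mean (20826 probe sets named 1 symbol, 436 several and 9780 none, beside 57 controls). The strains were compared over all 6 arrays by lmFit and eBayes, as TDESM minus TDECC. Tests were two-sided and p-values were adjusted by the Benjamini-Hochberg method over all genes. Single values also had an exact permutation test.

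The members and gene lists were chosen with earlier results of these data known, and Krt6c, Krt87, Krt88 and Krt90 were added to the other keratins after their values had been seen. All 10 members are named. Of other keratins and filament genes, those past the threshold are named, up to the 8 largest differences each way. Of anchors and basal or squamous genes, up to 4 each way are named, and for Krt7, Krt19, Krt17 and Vim the 3 nearest profiles. Further genes were named after their values had been seen, among them Krt1, Krt78, Krt79, Krt86, Dsp, Jup, Plec, Cdh17, Epcam and the mesothelial genes. The fit was tested on simulated data before use. It called 54% of the genes given a change of 1 on the log2 scale and 93% of those given 2. A gene that did not pass may therefore still differ.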

Additional observations from a re-analysis of the deposited data

How the results depend on the processing

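The calls and directions of Krt7, Krt8, Krt18, Krt19 and Vim were the same under all 15 alternatives run for each. They ranged from -7.19 to -5.72 for Krt7, -8.32 to -6.86 for Krt8, -11.48 to -10.01 for Krt18, -12.03 to -10.56 for Krt19 and 5.54 to 7.12 for Vim. The 4 within-array differences between keratins moved by less than their pooled SD whenever an array was left out. In a bound chosen after seeing the data, with Krt18 and Krt19 at the top of the reference range in TDESM, Krt7 minus Krt18 was 1.45, Krt7 minus Krt19 1.84 and Krt8 minus Krt18 0.31. The reference range decides whether a keratin counts as persisting: against its 99th percentile, 0 of the 9 keratins lay above it on every TDESM array, in place of 2.

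Centring arrays on the poly-A control transcripts moved the median gene by -1.27, with the following results. Of all genes 12187 passed, 905 higher and 11282 lower, and all 9 keratins, with 16 other keratins, passed. With most genes called lower, a call of lower under this centring says little about a single gene. Krt5 was at -0.68, Krt17 at -1.14, Des at -0.64, Nes at -0.49, Sync at -0.58, Lmna at -0.32 and Lrrn4 at -0.50.

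With probe sets in place of genes, 11470 passed, 5559 higher and 5911 lower, as more features were tested. Other keratins past the threshold numbered 2 with arrays centred on housekeeping genes and 2 with the replicate block, and 1 to 6 when each array was left out in turn. The cause was not tested. No pairing by replicate number was seen, though 3 arrays per strain cannot settle whether a number was shared. Deviations of same-numbered arrays correlated at -0.07, 0.02 and -0.14, and those of differently numbered arrays at -0.14 to 0.15. The replicate block changed no call of a member.

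Only 3 arrays per strain limit the precision, and values near 3 or above 14 may be compressed.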
